A study of Drosophila melanogaster with 11 samples.

Results

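Mitochondria make ATP by passing electrons along protein complexes in the inner membrane. Complex II (succinate dehydrogenase) feeds electrons from succinate into the chain, complex III (ubiquinol-cytochrome c reductase) passes them to cytochrome c, and complex IV (cytochrome c oxidase) passes them to oxygen. Complex V (ATP synthase) uses the resulting proton gradient to make ATP. Most subunits are encoded in the nucleus, and in Drosophila larvae muscle is among the tissues rich in these complexes. Transcripts of the nuclear genes of complexes II to V were followed here in larvae of a study on the sex-specific role of HP1, which packages heterochromatin around the centromeres.

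The genes were those whose current symbol begins with Sdh, UQCR-, Cyt-c, COX or ATPsyn, together with RFeSP, levy, cype and blw. Symbols ending in L, which mark paralogs, and genes on chromosome 4 were left out. This gave 41 genes, of which 31 had a probeset of their own, out of 11982 genes measured in all. By complex these were 3 genes of complex II (SdhB, SdhC and SdhD), the complex II assembly factor gene Sdhaf3, 6 genes of complex III, 11 of complex IV and 10 of complex V. COX6B and ATPsynG were present only on probesets shared with another gene, and SdhA, UQCR-C1, UQCR-C2, Cyt-c-d, Cyt-c-p, COX1, COX2 and COX3 had no probeset named for them, so these 10 were not analysed here. COX6AL2 and COX7AL2 are named as paralogs too but meet the letter of the rule. Where a gene had several probesets, the one with the highest mean log2 intensity over all arrays stood for it. The 31 genes lie on arms 3R (11), 3L (7), 2R (6) and 2L (5) and on the X (2), by the RefSeq gene table. The markers given for the group, SdhB, Cyt-c1 and levy, read between 8.08 and 10.41 on the log2 scale on every array, far above the overall median of 3.87.

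Total RNA of whole larvae of the last instar, in a y w background, was hybridised to 11 Affymetrix DGv2 arrays, 6 of males and 5 of females. Larvae of genotype y w; +/+; +/act-Gal4 carried the Gal4 driver alone (act-Gal4 control) and larvae of genotype y w; +/+; +/P carried the other transgene alone (P control). Larvae labelled +/P-act carried both (P/act-Gal4). P was taken to be line HP1-21 of the study's design text. Each genotype and sex had 2 arrays, except P/act-Gal4 females, with 1. The driver's name refers to actin, whose promoter is active in most cells. RNA of whole larvae sums over all tissues, and fewer cells of a type cannot be told apart from less RNA per cell. The design text speaks of RNA from 2 independent populations, but no label ties an array to one of them, so p-values measure the spread between these arrays.

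The HP1 transcript read 8.35 and 8.39 on the log2 scale in act-Gal4 control males, 8.03 and 8.07 in P control males, and 7.84 and 7.52 in P/act-Gal4 males. In females it read 8.04 and 8.03, 7.95 and 8.06, and 8.02 with both transgenes. It was lower in P/act-Gal4 males than in the mean of both male controls by 0.53 (limma adjusted p = 0.00124) and stood at -0.00171 on the P/act-Gal4 female array (adjusted p = 0.994). All statements on females with both transgenes therefore rest on 1 array on which the HP1 transcript was not lower. Array median intensities on the linear scale were 15.5 to 15.8 in males and 13.7 to 14.2 in females, and precision is limited by how few arrays there are. Over the 31 genes the median difference between replicates was 0.0331 to 0.0992, with a largest difference of 0.544 between the P control males, against medians of 0.0906 to 0.131 over all genes.

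The first question was whether respiratory transcripts differed in larvae with both transgenes from the mean of both controls of the same sex. They were lower in both sexes. Of the 31 genes, 25 fell and 2 rose in males, with a median log2 change of -0.46, at an adjusted p under 0.05 in limma's moderated test with Benjamini-Hochberg adjustment over all probesets. Over all genes 16.8% fell and 19.7% rose in males (36.5% in either direction), with a median of -0.0117. In females 25 fell and 1 rose, with a median of -0.61. Over all genes 8.34% fell and 11.3% rose in females (19.6% in either direction), with a median of -0.00607. The same 23 genes fell in males and in females (74.2% of the 31), against 3.71% of all genes. The male and female comparisons share no array. Their tests do share the estimate of spread for each gene, so the calls in males and females are not independent.

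Array by array the shift was even. The median over the 31 genes of the log2 deviation from the control mean of the same sex was -0.49 and -0.44 on the P/act-Gal4 male arrays and -0.61 on the P/act-Gal4 female array. On the male control arrays this median ran from -0.20 to 0.17 and on the female control arrays from -0.13 to 0.13. The median over all genes stayed between -0.0191 and 0.0114 on every array. Both P/act-Gal4 male arrays lay below all 4 male controls for 24 of the 31 genes (77.4%), where 22.0% of all genes did so, and above them for 1 (23.0% of all genes). The female array lay below all 4 female controls for 27 genes (87.1%, against 25.4% of all genes) and above them for 1 (27.2% of all genes).

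**Figure D1:**
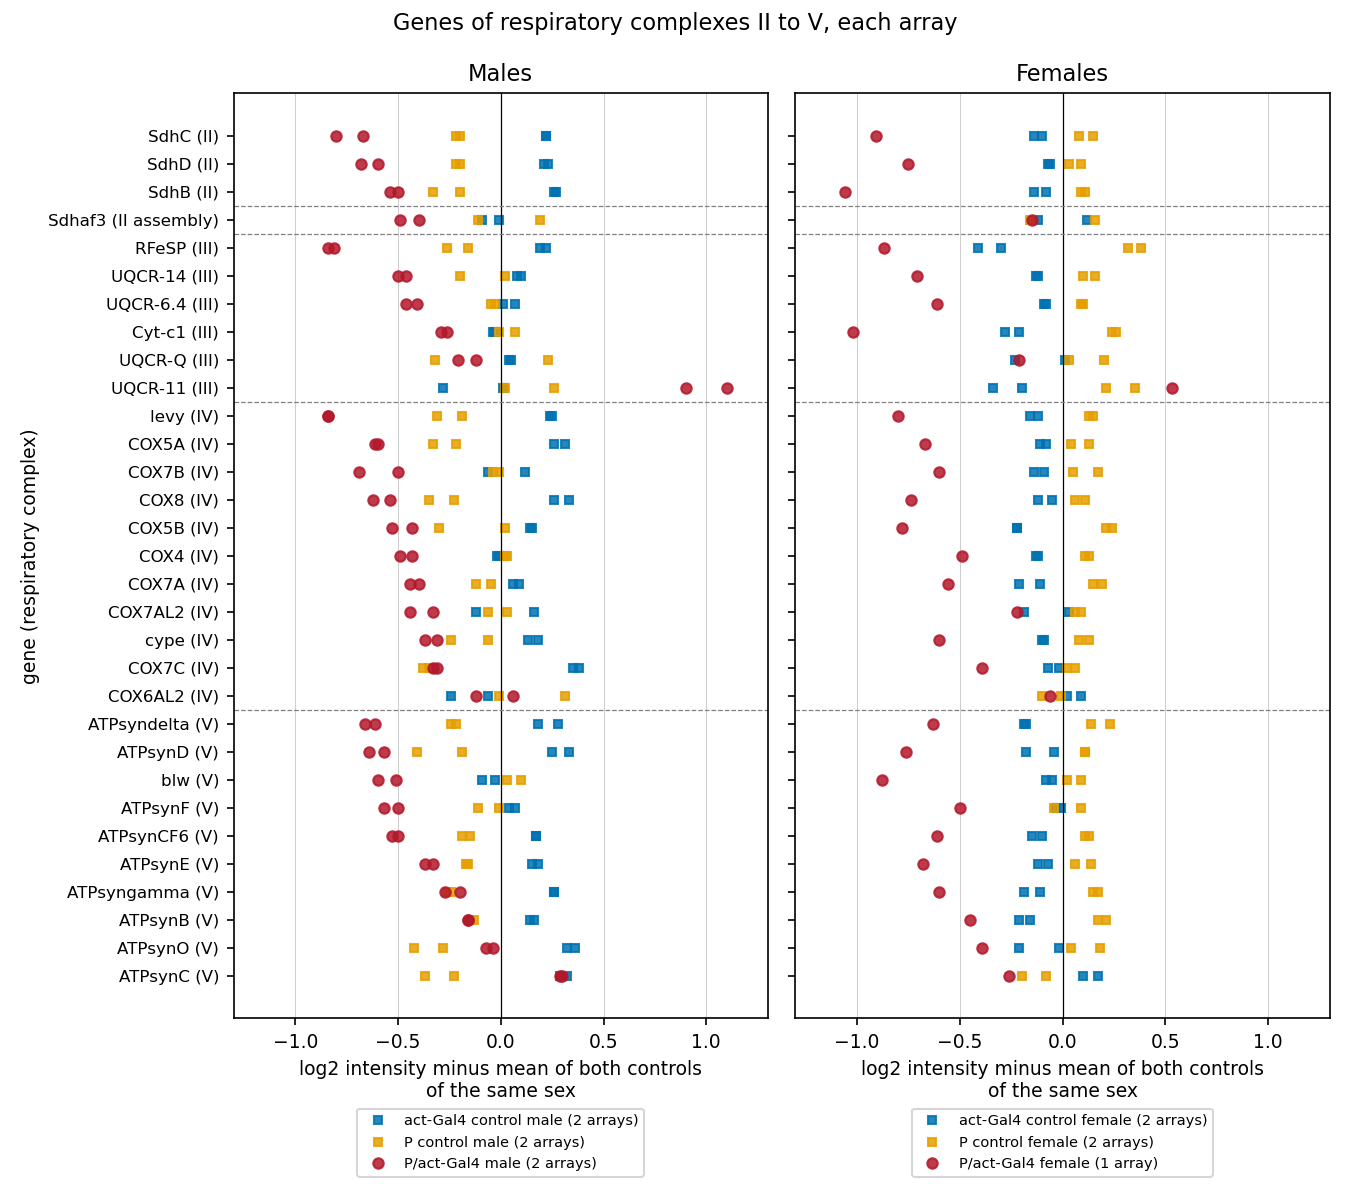
Log2 intensity minus the mean of both controls of the same sex (horizontal axis) for the 31 genes (rows, grouped by complex), with 1 symbol per array; squares are controls and circles P/act-Gal4. Most circles lie left of every square in both sexes, at medians of -0.49 and -0.44 in males and -0.61 in the female, while UQCR-11 lies to the right in both.

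The controls themselves stood apart, and this bears on every count above. Against each control taken alone, 19 of the 31 genes fell in males (8.43% of all genes) and 22 in females (3.74% of all genes). The controls of a sex were also treated as 1 group, so that their difference entered the error. That error was shared by both sexes, so a control difference in either sex widened both tests. In this setting 16 genes fell and 1 rose in males (7.51% of all genes fell). In females 7 fell and none rose (1.03% of all genes fell). The 7 were SdhB, SdhC, Cyt-c1, UQCR-14, UQCR-6.4, ATPsynF and blw.

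Markers of other tissues and of RNA quality were read on the same arrays. Over all genes 16.8% fell and 19.7% rose in males, and 8.34% fell and 11.3% rose in females. Among 16 measured muscle genes 7 were called lower (43.8%) and 3 higher (18.8%) in males with both transgenes (median -0.15). In the female 10 fell (62.5%, median -0.45). The largest falls in both were those of the tropomyosin gene Tm2 (-1.08 and -1.34) and the troponin T gene up (-0.88 and -1.32). The largest rises in males were those of sls (0.49) and Mlc2 (0.32). The summed muscle signal was 14.09 and 14.12 on the log2 scale on the P/act-Gal4 male arrays, 14.21 and 14.22 on the P control male arrays and 14.66 and 14.69 on the act-Gal4 control male arrays. It was 14.01 on the P/act-Gal4 female array and 14.54 to 14.62 on the female controls. Muscle sums in female controls were 14.62 and 14.60 in act-Gal4 and 14.54 and 14.57 in P. Sums weigh bright genes most, so the median deviation from the control mean, used above, is given beside them. For muscle genes in males it was 0.14 and 0.15 in act-Gal4, -0.15 and -0.12 in P and -0.18 and -0.20 with both transgenes. In females it was -0.00759 and -0.0555 in act-Gal4, 0.0102 and 0.0514 in P and -0.45 with both transgenes. Respiratory medians in males were 0.15 and 0.17, -0.13 and -0.20, and -0.49 and -0.44 in the same order. In females they were -0.0953 and -0.13, 0.13 and 0.11, and -0.61. RNA quality was read from control probesets as 3′ minus 5′ signal in log2, which is lower where the 5′ part is better represented. For eIF4a this was 3.66 and 3.72 in P/act-Gal4 males, 4.30 and 4.34 in act-Gal4 control males, and 4.95 and 4.98 in P control males. It was 3.47 on the P/act-Gal4 female array and 3.89 to 4.28 on the female controls. For GAPDH it was 3.36 and 3.26 in P/act-Gal4 males against 3.23 to 4.64 in male controls, and 2.90 in the female against 3.02 to 3.66. For actin it was 3.00 and 2.89 in P/act-Gal4 males against 4.02 to 4.14 in male controls, and 2.95 in the female, within the 2.93 to 3.76 of female controls. In the fat body list 2 of 8 genes rose (25.0%) and 1 fell (12.5%) in males. In the midgut list 2 of 11 rose (18.2%) and 2 fell (18.2%), near the shares of all genes. Summed signals of these lists on P/act-Gal4 male arrays were 14.63 to 14.66 and 13.63 to 13.65, against 14.40 to 14.77 and 13.38 to 13.60 on male controls. In females they were 14.96 and 13.61, against 14.31 to 15.09 and 13.64 to 13.89. Fat body genes held 2 rises (25.0%) and 3 falls (37.5%), and midgut genes 3 rises (27.3%) and 1 fall (9.09%). Among 20 measured testis genes 2 rose and 10 fell in males and 5 rose in the female; their summed signal was 12.61 and 12.64 on P/act-Gal4 male arrays and 12.45 to 12.95 on male controls, and 8.18 on the P/act-Gal4 female array and 7.66 to 7.93 on female controls. The part of tissue makeup and RNA quality in the respiratory changes was not tested.

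Complex II fell as a whole in so far as it was measured. SdhB, the iron-sulfur subunit, read 8.92 and 8.91 in act-Gal4 control males, 8.45 and 8.32 in P control males, and 8.11 and 8.15 in P/act-Gal4 males. In females it read 9.06 and 9.0, 9.23 and 9.25, and 8.08 on the P/act-Gal4 array. The arrays with both transgenes were thus lowest in each sex without overlap. SdhB fell by 0.52 ± 0.0761 (SE) in males (1.43-fold, adjusted p = 0.000349) and by 1.06 ± 0.0982 in females (2.08-fold, adjusted p = 3.05e-05). In males the call was lost against P alone (-0.25, adjusted p = 0.0588) and with pooled controls (-0.52, adjusted p = 0.0728). SdhC and SdhD, the membrane anchor subunits, fell by 0.74 and 0.64 in males and by 0.91 and 0.75 in females, and no P/act-Gal4 array reached a control array of its sex for either. Sdhaf3, which acts in assembly of the complex, was dim at 4.74 to 5.6. It fell by 0.44 ± 0.117 in males (adjusted p = 0.0134) and stood at -0.15 in the female (adjusted p = 0.56). Its call in males ended without P/act-Gal4 male replicate 1 (-0.40, adjusted p = 0.116) or replicate 2 (-0.49, adjusted p = 0.0637).

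Complex III held falls of 4 genes in each sex and 1 rise. Cyt-c1, the subunit with the c-type heme, read 9.32 and 9.31 in act-Gal4 control males, 9.42 and 9.34 in P control males, and 9.06 and 9.09 in P/act-Gal4 males. Female arrays read 9.94 and 9.87, 10.39 and 10.41, and 9.13 on the P/act-Gal4 array. Female controls lay above all male arrays, and the female array with both transgenes lay below every control of either sex. The fall was 0.27 ± 0.0735 in males (1.21-fold, adjusted p = 0.0147) and 1.03 ± 0.0949 in females (2.04-fold, adjusted p = 2.94e-05). The male call ended against act-Gal4 alone (-0.24, adjusted p = 0.0538), with pooled controls (-0.27, adjusted p = 0.303), and without P/act-Gal4 male replicate 1 (-0.26, adjusted p = 0.1) or replicate 2 (-0.29, adjusted p = 0.0754).

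RFeSP, the Rieske iron-sulfur subunit, read 8.45 and 8.48 in act-Gal4 control males, 8.10 and 8.0 in P control males and 7.42 and 7.45 in P/act-Gal4 males. It read 8.24 and 8.13, 8.92 and 8.86, and 7.67 in the same order in females. Both sexes were lower without overlap, by 0.82 in males and by 0.87 ± 0.0993 in females (adjusted p = 0.000128), although the female call ended with pooled controls (adjusted p = 0.17). A further RFeSP probeset was dim throughout, at 2.71 to 3.53, and stood at 0.21 in males (adjusted p = 0.142) while it fell by 0.48 in the female (adjusted p = 0.0253). The small subunit genes UQCR-14 and UQCR-6.4 fell by 0.48 and 0.43 in males and by 0.71 and 0.61 in females. UQCR-Q did not pass in either sex, at -0.17 (95% interval -0.46 to 0.13) and -0.21 (-0.59 to 0.17), and its P control males differed from each other, at 7.65 and 7.10.

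UQCR-11, the gene of the hinge subunit on arm 3L, went the other way. It read 4.61 and 4.90 in act-Gal4 control males, 5.15 and 4.91 in P control males, and 5.79 and 5.99 in P/act-Gal4 males. In females it read 5.5 and 5.36, 5.91 and 6.05, and 6.23 on the P/act-Gal4 array. Arrays with both transgenes were highest in each sex without overlap. It rose by 1.0 ± 0.111 in males (1.99-fold, adjusted p = 5.15e-05), also against P alone (0.86, adjusted p = 0.000475), act-Gal4 alone (1.13, adjusted p = 5.85e-05) and pooled controls (adjusted p = 0.00805). In females the rise was 0.52 ± 0.143 (adjusted p = 0.0282), and that call ended against P alone (0.25, adjusted p = 0.322), with pooled controls (adjusted p = 0.366), with quantile normalization once more (0.40, adjusted p = 0.0611) and without act-Gal4 control female replicate 2 (0.49, adjusted p = 0.056). The difference between the sexes did not pass (0.47, 95% interval 0.08 to 0.87, adjusted p = 0.126), but did with quantile normalization once more (0.60, adjusted p = 0.0364). UQCR-11 was dimmer than the probesets that stood for the other complex III genes, each of which lay between 6.99 and 10.97, and levels of different probesets are not comparable as amounts of RNA.

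**Figure D2:**
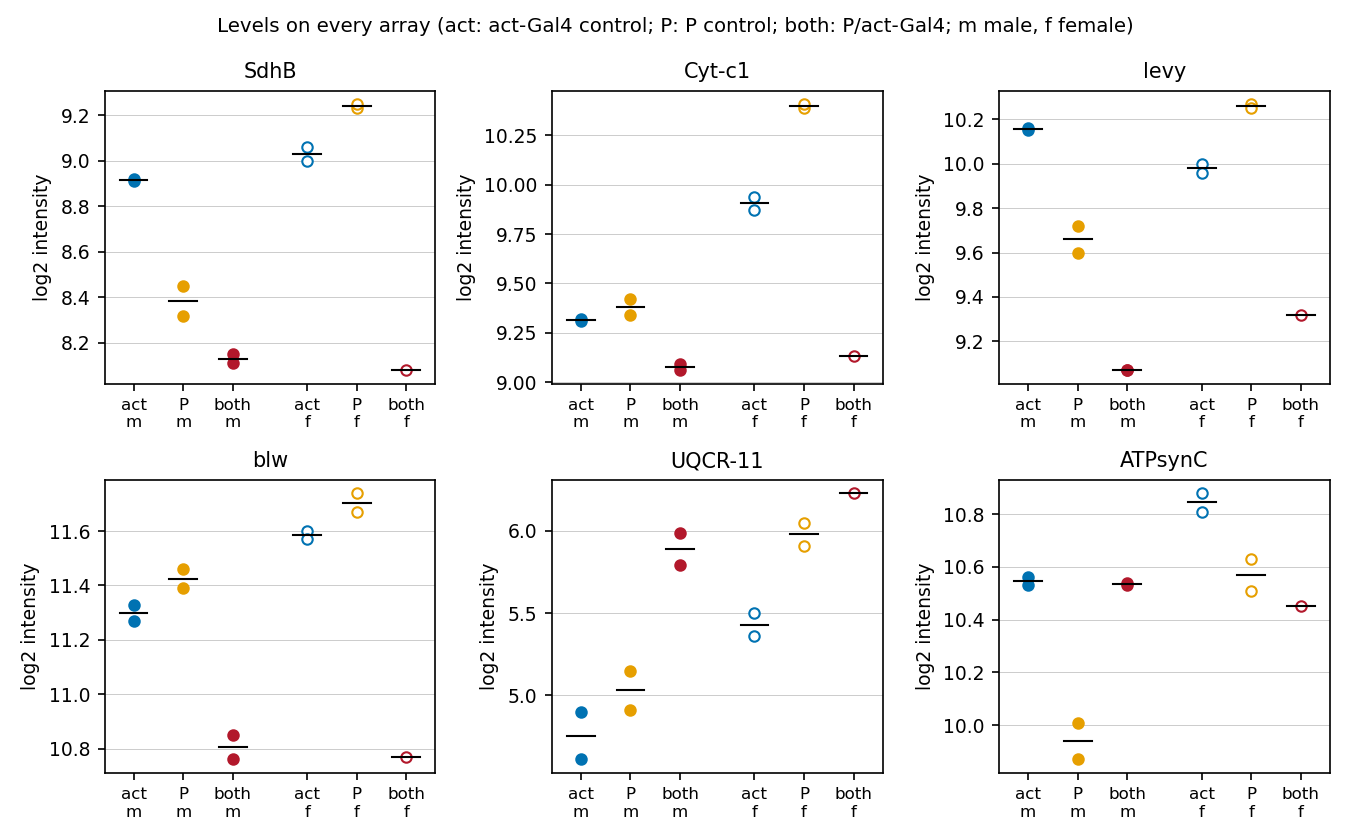
Log2 intensity on every array (vertical axis, a separate scale for each gene) for SdhB, Cyt-c1, levy, blw, UQCR-11 and ATPsynC by genotype and sex (horizontal axis); points are arrays, filled for males and open for females, and bars are group means. The first 4 genes are lowest in larvae with both transgenes in each sex, UQCR-11 is highest there, and ATPsynC in P/act-Gal4 males equals the act-Gal4 control and lies above the P control.

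Complex IV fell in 10 of 11 genes in males and in 9 of 11 in females. The gene levy, which encodes subunit VIa, read 10.16 and 10.15 in act-Gal4 control males, 9.72 and 9.60 in P control males, and 9.07 on both P/act-Gal4 male arrays. In females it read 10 and 9.96, 10.27 and 10.25, and 9.32. It was lowest with both transgenes in each sex, and the falls in males (0.83, 1.78-fold) and females (0.80, 1.75-fold) differed by -0.0305, with a 95% interval of -0.30 to 0.24. The male fall held against P alone (-0.59, adjusted p = 0.000421), act-Gal4 alone (-1.08, adjusted p = 5.11e-06) and pooled controls (adjusted p = 0.00876). The female fall did not pass with pooled controls (adjusted p = 0.085).

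The structural subunit genes COX4, COX5A, COX5B, COX7A, COX7B and COX8 fell by 0.42 to 0.61 in males and by 0.49 to 0.79 in females, with no overlap between P/act-Gal4 and control arrays in either sex. Their calls in males held against each control alone, and those of COX5B and COX8 did not pass with pooled controls (adjusted p = 0.0888 and 0.0564). Of these 6 none passed with pooled controls in females, where adjusted p ran from 0.0568 for COX7B to 0.17 for COX5A. The subunit VIc gene cype fell by 0.34 in males and by 0.61 in females, and in males its call ended against P alone (-0.19, adjusted p = 0.161), with pooled controls (adjusted p = 0.107) and without P/act-Gal4 male replicate 2 (-0.32, adjusted p = 0.0723). COX7C depended on the control: it read 10.01 and 10.04 in act-Gal4 control males, 9.31 and 9.28 in P control males and 9.33 and 9.35 in P/act-Gal4 males. The larvae with both transgenes thus lay at the level of the P control, with differences of 0.0446 against P (adjusted p = 0.759) and -0.68 against act-Gal4 (adjusted p = 0.000102). Its fall in females (-0.39, adjusted p = 0.0152) ended as the mean over its probesets (-0.15, adjusted p = 0.497). A second COX7B probeset fell as well (-0.53 in males and -0.46 in females), and another, dim one stood at 0.0405 in males (adjusted p = 0.796). A second, dim COX7C probeset read 3.71 to 4.91 in males and 2.28 to 2.81 in females. It fell by 0.61 in males (adjusted p = 0.015), with both P/act-Gal4 male arrays below all male controls. In the female it stood at 0.083 (adjusted p = 0.837).

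The paralogs named COX6AL2 and COX7AL2 read at most 4.04, close to the overall median of 3.87. COX6AL2 stood at -0.0254 in males and -0.0616 in females (adjusted p = 0.895 and 0.809). COX7AL2 fell by 0.39 in males (adjusted p = 0.012), a call that ended without P/act-Gal4 male replicate 1 (-0.33, adjusted p = 0.122), and stood at -0.22 in the female (adjusted p = 0.305). Without both paralogs 24 of 29 genes fell in males and 25 of 29 in females.

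In complex V 9 of 10 genes fell in females, and in males 7 fell, 1 rose and ATPsynB and ATPsynO did not pass. The alpha subunit gene blw, which forms the catalytic head together with the beta subunit, read 11.27 and 11.33 in act-Gal4 control males, 11.39 and 11.46 in P control males, and 10.85 and 10.76 in P/act-Gal4 males. Female arrays read 11.60 and 11.57, 11.67 and 11.74, and 10.77. The arrays with both transgenes were lowest in each sex without overlap. The fall was 0.55 ± 0.0761 in males (1.47-fold, adjusted p = 0.000212) and 0.88 ± 0.0982 in females (1.84-fold, adjusted p = 0.000113), and both calls held under every alternative that gave a value.

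Of the central stalk, ATPsyndelta fell by 0.64 ± 0.075 in males (adjusted p = 7.79e-05) and by 0.62 ± 0.0968 in females (adjusted p = 0.00106). ATPsyngamma, the rotor subunit, read 9.60 on both act-Gal4 control male arrays, 9.10 and 9.08 in P control males and 9.07 and 9.14 in P/act-Gal4 males. On this probeset the fall of 0.24 in males (adjusted p = 0.0303) was therefore set by the act-Gal4 control, with 0.0194 against P alone (adjusted p = 0.9). The call also ended without any 1 of the 6 male arrays. In females it fell by 0.61 ± 0.0948 (adjusted p = 0.00115). A second ATPsyngamma probeset fell by 0.48 in males (adjusted p = 0.00317) and by 0.81 in females (adjusted p = 0.00113). On it the P/act-Gal4 arrays lay below all controls of their sex. Its act-Gal4 minus P difference in male controls was -0.26 (adjusted p = 0.155), against 0.51 on the probeset above.

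Of the peripheral stalk, ATPsynD and ATPsynCF6 fell by 0.60 and 0.51 in males and by 0.76 and 0.60 in females. ATPsynB and ATPsynO stood at -0.16 and -0.0541 in males (adjusted p = 0.131 and 0.714) and fell by 0.45 and 0.39 in females (adjusted p = 0.00642 and 0.0387). The female calls of both ended against act-Gal4 alone (adjusted p = 0.129 and 0.193), and that of ATPsynO ended under 8 other settings, with adjusted p between 0.0559 and 0.548. ATPsynE and ATPsynF, of the membrane part, fell by 0.35 and 0.53 in males and by 0.68 and 0.50 in females. The male call of ATPsynE ended against P alone (-0.19, adjusted p = 0.141) and with pooled controls (adjusted p = 0.101).

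ATPsynC encodes the subunit of the proton-carrying ring. It read 10.53 and 10.56 in act-Gal4 control males, 10.01 and 9.87 in P control males, and 10.53 and 10.54 in P/act-Gal4 males. Female arrays read 10.81 and 10.88, 10.51 and 10.63, and 10.45. Larvae with both transgenes matched the act-Gal4 control in males and lay below all controls in females. The rise of 0.30 ± 0.0797 in males (adjusted p = 0.0151) was 0.60 against P alone (adjusted p = 0.000597) and -0.00596 against act-Gal4 alone (adjusted p = 0.975), and it did not pass with pooled controls (adjusted p = 0.396) or without P/act-Gal4 male replicate 1 (adjusted p = 0.0838) or replicate 2 (adjusted p = 0.0996). In females it stood at -0.26 ± 0.103 (adjusted p = 0.118). ATPsynbeta, the catalytic beta subunit gene, was left out as a gene of chromosome 4; it rose by 0.36 in males (adjusted p = 0.00273) and fell by 0.38 in females (adjusted p = 0.0156). ATPsynbeta with both transgenes read 9.03 and 8.99 in males and 9.08 in the female, near the act-Gal4 controls (8.97 on both male arrays, 9.09 and 9.12 in females), whereas the P controls read 8.30 and 8.35 in males and 9.83 and 9.80 in females. Both changes thus lay against the P control.

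Whether the change differed between the sexes was tested directly. It was more negative in females for 25 of 31 genes (80.6%, against 49.3% of all genes), and the median difference, male minus female, was 0.15. That direction turned with the control: against P alone the change was more negative in females for 28 genes (median 0.45), and against act-Gal4 alone for 10 of 31 (median -0.11). For 3 genes it passed: Cyt-c1 (0.75 ± 0.12, adjusted p = 0.00197), ATPsynC (0.56 ± 0.13, adjusted p = 0.0168) and SdhB (0.54 ± 0.124, adjusted p = 0.0148). No gene passed in the other direction, and over all genes 7.48% were higher and 7.74% lower (15.2% in all). The count depended on the control as well. Against the P control alone 14 of 31 passed, each with the larger value in males (8.88% of all genes), and against the act-Gal4 control alone 2 passed, 1 in each direction (5.45% of all genes higher, 6.33% lower and 11.8% in all). With pooled controls 0 passed in limma, against 1.47% of all genes, with 1 at an unadjusted p under 0.05. Without P/act-Gal4 male replicate 2 only Cyt-c1 passed (SdhB adjusted p = 0.0579, ATPsynC 0.0581), and without replicate 1 ATPsynC did not (adjusted p = 0.0576). For COX7B and ATPsyndelta the differences were -0.00247 (95% interval -0.32 to 0.31) and -0.0104 (-0.28 to 0.26).

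**Figure D3:**
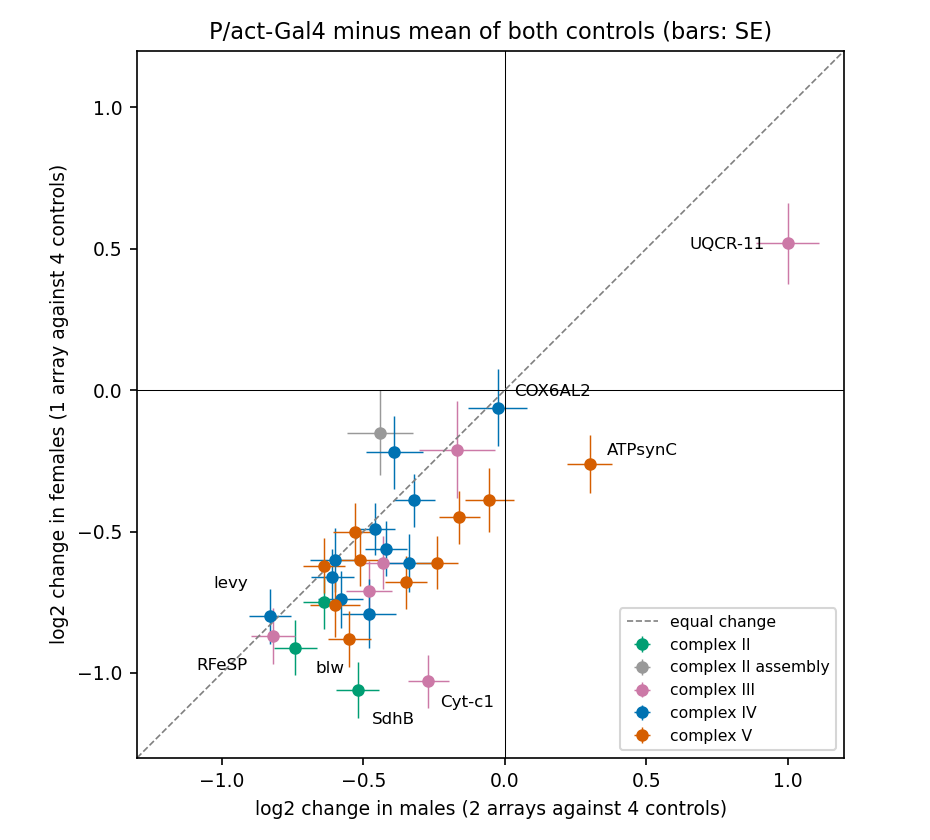
Log2 change in males (horizontal axis, 2 arrays against 4 controls) against the change in females (vertical axis, 1 array against 4 controls) for the 31 genes, coloured by complex; bars are standard errors and the dashed line marks equal change. Most genes lie at the lower left, on or below the line, Cyt-c1 and SdhB lie farthest below it among those that fell in both, and UQCR-11 is alone at the upper right.

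The controls were then compared with each other, since a difference between crosses enters each comparison above. In males 17 of the 31 genes were higher in the act-Gal4 control than in the P control and none was lower, with a median difference of 0.30. Over all genes 13.3% were higher and 9.85% lower (23.1% in all). In females the direction was opposite: 9 genes were lower in the act-Gal4 control and none higher, with a median of -0.22. Over all genes 10% were lower and 9.95% higher (20.0% in all). The 9 were RFeSP (-0.70), UQCR-11 (-0.56), Cyt-c1 (-0.49), COX5B (-0.44), ATPsynB (-0.38), ATPsyndelta (-0.37), COX7A (-0.33), ATPsyngamma (-0.32) and levy (-0.28). Without any single female control array the female count was 3 to 5: 4 without act-Gal4 control female replicate 1, 3 without replicate 2, 5 without P control female replicate 1 and 4 without replicate 2. In males COX7C (0.73), ATPsynO (0.69), ATPsynC (0.60), ATPsynD (0.59) and COX8 (0.59) differed by over 0.55 on the log2 scale, as did COX5A (0.56), whereas COX4 (-0.0396, adjusted p = 0.822) and Cyt-c1 (-0.0637, adjusted p = 0.701) did not pass.

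The opposite directions were tested as a difference of differences, chosen after seeing the data. The act-Gal4 minus P difference was larger in males than in females for 18 of the 31 genes and smaller for none, with a median of 0.52, against 6.69% and 3.65% of all genes (10.3% in all). RFeSP gave 1.12 ± 0.126 (adjusted p = 0.000401), ATPsynO 0.92, ATPsyndelta 0.83 and ATPsyngamma 0.83. The probeset mattered, as a second ATPsyngamma probeset of similar signal stood at -0.029 (adjusted p = 0.943). A second COX7B probeset gave 0.81 (adjusted p = 0.00478), where the one that stood for COX7B gave 0.28 (adjusted p = 0.29). All 3 measured complex II subunit genes passed, as did 1 of 6 in complex III, 7 of 11 in complex IV and 7 of 10 in complex V. For blw the value was -2e-05 ± 0.124 (adjusted p = 1).

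In the mean of both controls 25 genes were lower in males than in females and 2 higher, with a median of -0.30, where 40.9% of all genes were lower and 22.4% higher (63.4% in all) and their median was -0.14. All 4 male controls lay below all 4 female controls for 11 genes (22.4% of all genes) and above them for 2 (18.8% of all genes), namely COX6AL2 and Sdhaf3. By genotype, also chosen after seeing the data, the sex difference was found mostly in the P cross. There 26 genes were lower in males and 2 higher, with a median of -0.61 (all genes -0.12, with 30.6% lower, 20.6% higher and 51.2% in all). Male minus female differences in the P control were -1.02 for Cyt-c1, -0.99 for COX5B and -0.95 for UQCR-11.

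In the act-Gal4 control 5 genes were lower in males and 3 higher, with a median of -0.0036 (all genes -0.12, with 25.8% lower, 20.1% higher and 45.9% in all). The 5 were UQCR-11 (-0.67), Cyt-c1 (-0.59), ATPsynC (-0.30), blw (-0.28) and UQCR-6.4 (-0.27), and the 3 were COX6AL2 (0.73), Sdhaf3 (0.46) and RFeSP (0.28). Without act-Gal4 control male replicate 1, male replicate 2 or female replicate 2 this count of 8 was 3. In P/act-Gal4 larvae, with 1 female array, COX7C was lower in males (-0.40, adjusted p = 0.0129) and COX6AL2 higher (0.97, adjusted p = 0.000394), and the median was -0.11 (all genes -0.11, with 16.3% lower, 16.1% higher and 32.5% in all). Without P/act-Gal4 male replicate 1 a single gene passed, in the higher direction. These values carry a shift of all genes: with every array moved to a common median, the male minus female medians over all probesets went to about -0.33 in the mean of controls, act-Gal4 and P/act-Gal4 and to -0.309 in P, and the respiratory medians to -0.462 in the mean of controls, -0.17 in act-Gal4, -0.305 in P/act-Gal4 and -0.755 in P. On that scale 12 of the 31 genes were lower in act-Gal4 males, against 51.6% of all genes, and 16 in P/act-Gal4 males, against 43.6% of all genes. Relative to all probesets the respiratory median was thus lower in P males and not in act-Gal4 males.

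**Figure D4:**
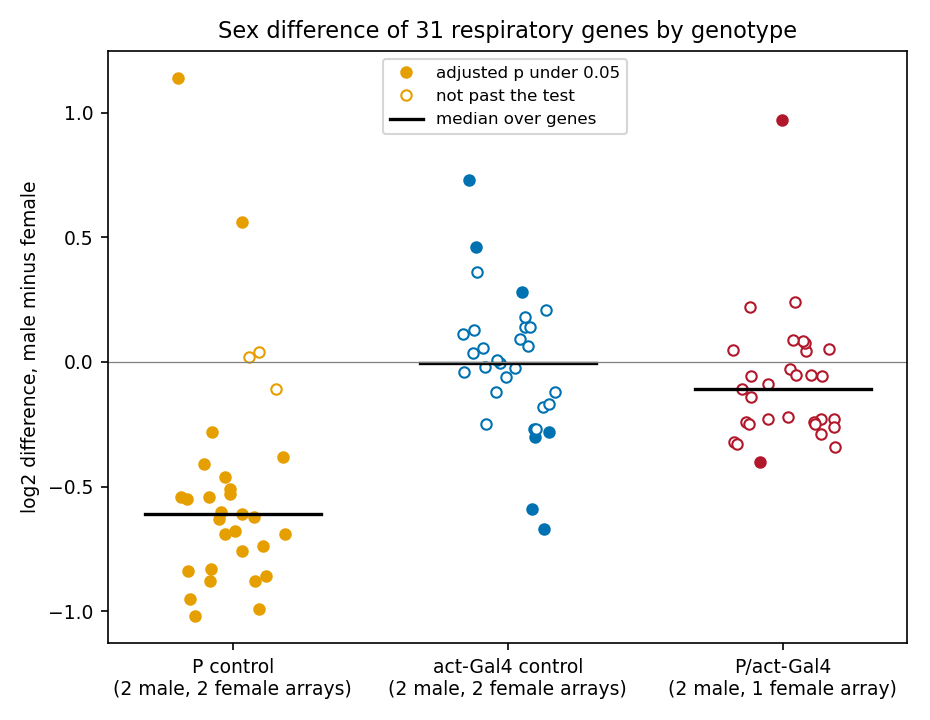
Male minus female log2 difference (vertical axis) of the 31 genes in the P control, the act-Gal4 control and P/act-Gal4 larvae; filled points passed at an adjusted p under 0.05, open points did not, and bars are medians. The medians are -0.61 in the P control, -0.0036 in the act-Gal4 control and -0.11 with both transgenes.

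Other genes of the pathway were described from lists by name. Beside them, 16.8% of all genes fell and 19.7% rose in males, and 8.34% fell and 11.3% rose in females. Of 28 measured genes of complex I, which feeds electrons from NADH into the chain, 22 fell (78.6%) and 1 rose (3.57%) in males. Their median was -0.43. In females 22 fell (78.6%, median -0.55). The examples were ND-MLRQ (-0.79) and ND-B17.2 (-0.75) in males and ND-75 (-1.3) and ND-42 (-0.96) in females. The genes ox and sun, subunits of complexes III and V outside the prefixes, stood at medians of -0.20 in males and -0.39 in females, and ox passed in both (-0.34 and -0.47). Of 10 measured genes of the tricarboxylic acid cycle, which supplies NADH and succinate, 2 rose and 2 fell in males (median 0.046), with ScsbetaA at 0.61, and 5 fell in females (median -0.42), with Idh3b at -0.99. The male minus female difference passed for 6 of these 10. Of 15 assembly factors and carriers, 5 fell in males (33.3%, median -0.22), and 5 fell (33.3%) and 1 rose (6.67%) in females (median -0.31). The falls were led by the phosphate carrier gene Mpcp1 (-1.19 and -1.84). The ADP/ATP translocase gene sesB fell by 0.81 in females and the outer membrane channel gene porin by 0.50 in males. Of 12 regulators of mitochondrial gene expression, 2 rose (16.7%) and 1 fell (8.33%) in males (median 0.0455). In females 1 rose and 1 fell (8.33% each way, median 0.053). In neither sex did a share of the regulators exceed that of all genes. TFAM, which packages mitochondrial DNA, fell by 0.77 ± 0.105 in males (adjusted p = 0.0002), and the nuclear receptor gene ERR rose by 0.49. The 15 measured paralogs with symbols ending in L were all called higher in males than in females among controls (22.4% of all genes). In 13 of them every female group lay at or below 3.87, the overall median signal, so the size of that difference is not given. With both transgenes 6 fell (40.0%) and 2 rose (13.3%) in males. In females a change could hardly be seen at such signals, and none passed.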

How the data were processed

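The authors deposited RMA-summarized intensities for each array and probeset, on a linear scale by their range, per the submitters' processing notes; version, options and genome build are not given in the sources used here. Log2 was taken with no pseudocount or filter. Of 18952 probesets, 183 control probesets were left out and 18769 tested; 13647 carry 1 gene in the platform table, 402 several and 4720 none. Symbols and arms come from RefSeq (Release 6), which held 13544 of the single-gene probesets. Groups were taken from titles, since strain and description labels conflict with them. With limma 3.58.1 (R 4.3.3), 6 group means were fitted over 11 arrays, leaving 5 residual degrees of freedom beside 6.29 prior ones; the group with a single array borrows the spread of the rest. Tests were two-sided, with Benjamini-Hochberg adjustment over all probesets and a threshold of 0.05; errors are standard errors. The fit was tested on simulated data. Only 6 probesets were Y-linked, too few for a background level, so the overall median of 3.87 was used. The rule for array values named SdhB, Cyt-c1, levy and the 2 genes per complex with the largest absolute difference in each comparison. Of the genes it named beside the first 3, only RFeSP, UQCR-11, ATPsynC, blw and ATPsyngamma are given by array. The rule's other genes are given by their differences. COX7C was added after its values were seen. ATPsyngamma and COX7C are given on male arrays only. HP1 and ATPsynbeta lie outside the rule and are also given on every array. Alternatives were limma's trend and robust options, quantile normalization, a common median, bright probesets (mean log2 of at least 5), the mean over a gene's probesets, each control alone, pooled controls, and each array left out. Members and lists were chosen with earlier results of these data known. Figures were drawn with matplotlib 3.10.9.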

Additional observations from a re-analysis of the deposited data

Results flagged for a closer look

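The change in larvae with both transgenes differed between the sexes, by a test of the difference, for SdhB (0.54), Cyt-c1 (0.75) and ATPsynC (0.56), given as the log2 change in males minus that in females. SdhB and Cyt-c1 fell in both sexes and more in the single female array, while ATPsynC was higher than the P control in males. These genes are 9.68% of the 31, against 15.2% of all genes that passed this test in either direction. No call held with pooled controls, and those of SdhB and ATPsynC also ended against act-Gal4 alone.

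The difference between the controls, act-Gal4 minus P, differed between the sexes for 18 genes (58.1%), each with the larger value in males (6.69% of all genes). In complex II the log2 difference, male minus female, was 0.74 for SdhB, 0.66 for SdhC and 0.55 for SdhD, and in complex III it was 1.12 for RFeSP. In complex IV it was 0.74 for COX5A, 0.72 for COX5B, 0.49 for COX7A, 0.82 for COX7C, 0.75 for COX8, 0.50 for cype and 0.78 for levy. In complex V it was 0.67 for ATPsynB, 0.58 for ATPsynCF6, 0.81 for ATPsynD, 0.52 for ATPsynE, 0.92 for ATPsynO, 0.83 for ATPsyndelta and 0.83 for ATPsyngamma. A second ATPsyngamma probeset stood at -0.029, short of the threshold. The summed muscle signal stood at 14.21 to 14.22 in P control males and 14.66 to 14.69 in act-Gal4 control males. In females it stood at 14.54 to 14.57 in P controls and 14.60 to 14.62 in act-Gal4 controls. The median over the 16 muscle genes of the act-Gal4 minus P difference was 0.30 in males and -0.069 in females. The part of muscle signal in these differences was not tested.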

How the results depend on the processing

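With 1 array left out, the number of the 31 genes past the threshold ran from 21 to 27 for P/act-Gal4 against controls in males, 25 to 26 in females, 1 to 3 for the difference between them, 27 to 28 for sex in controls, 12 to 17 and 3 to 9 for act-Gal4 against P in males and females, 13 to 18 for the difference of those, and 26 to 28, 3 to 11 and 1 to 3 for sex in P, act-Gal4 and P/act-Gal4 larvae. Pooled controls gave 17 in males, 7 in females, 0 for their difference and 17 for sex in controls. Trend and robust options gave 10 for the difference between the sexes, 24 for act-Gal4 against P in females, 16 for sex in act-Gal4 and 14 in P/act-Gal4 larvae. Bright probesets gave 7, 17, 11 and 9 for the same comparisons. Shares over all genes are not given for these options, for left-out arrays or for sex with pooled controls. These counts therefore cannot tell a change particular to the 31 genes from a change in calls of all genes. A common median gave 13 and 17 for sex in act-Gal4 and P/act-Gal4 larvae. Against P alone the difference between the sexes passed for 14, and sex in act-Gal4 controls alone for 8. Without COX6AL2 and COX7AL2, also without Sdhaf3, sex in P/act-Gal4 larvae passed for 1. Among the genes named by rule, signs turned for levy in the difference between the sexes against P alone (0.36) and, with act-Gal4 alone, for ATPsyngamma (-0.0452), COX5B (-0.0593) and SdhC (-0.16) in that difference and for SdhC (0.11) and levy (0.18) in sex. Calls of sex passed in the opposite direction for COX7C as the mean over its probesets (0.76, adjusted p = 1.43e-05) and for RFeSP with act-Gal4 alone (0.28, adjusted p = 0.0279). For COX5A, ATPsynB, ATPsynE, ATPsynO, ATPsyndelta and ATPsyngamma sex turned to 0.01 to 0.14 with act-Gal4 alone, short of the threshold. For pooled controls the cause is their difference, in either sex, entering the shared spread. For COX7C the mean takes in a probeset that was higher in males. For the others the cause was not tested. No paired analysis was possible because the labels number no replicates.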

Other observations

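UQCR-11, which rose where most subunit genes fell, lies near the end of the sequence of arm 3L in the RefSeq gene order, with 26 of the arm's 3482 genes after it. This place was looked up after its values were seen. Within 8 places of it on either side, 4 other genes were measured. FASN3 and l(3)80Fg, on the side of the arm's end, rose by 0.58 and 0.39 in P/act-Gal4 males (adjusted p = 0.00109 and 0.0143) and stood at 0.33 and 0.38 in the female (adjusted p = 0.124 and 0.0824). MED21 and scro, on the other side, stood at -0.19 and -0.12 in males (adjusted p = 0.147 and 0.481) and at 0.17 and -0.01 in the female (adjusted p = 0.395 and 0.982).

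On the arrays with both transgenes several subunit genes read close to each other in males and females. Cyt-c1 read 9.06 and 9.09 in P/act-Gal4 males and 9.13 in the female, and its male minus female difference was -0.0518 (adjusted p = 0.746). SdhB gave 0.0538 (adjusted p = 0.746) and blw 0.0419 (adjusted p = 0.805). The P controls of all 3 differed by sex, and so did the act-Gal4 controls of Cyt-c1 and blw, while for SdhB the act-Gal4 controls stood at -0.12 (adjusted p = 0.288). A p that misses the threshold with 1 female array does not show equal levels.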
